A study of Mus musculus with 15 samples.

Results

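Adding and removing acetyl groups on histones are opposite steps of one system. Histone acetyltransferases such as CBP and p300 place the mark at active genes, where it loosens chromatin and is read by bromodomain proteins. Histone deacetylases remove it, usually as the catalytic part of a corepressor complex, and in neurons this balance is tied to activity, memory and the daily cycle of the clock genes. The genes described here are 10 of the 23235 genes in the RNA-seq table: 4 acetyltransferases (*Crebbp*, which encodes CBP, *Ep300*, which encodes p300, *Kat2a*, which encodes GCN5, and *Kat2b*, which encodes PCAF), 3 class I deacetylases (*Hdac1*, *Hdac2* and *Hdac3*), 2 class IIa deacetylases (*Hdac4* and *Hdac5*) and the corepressor *Ncor1*, which binds and activates the HDAC3 enzyme. They were chosen by name, and all 10 were found. The table gives FPKM, in which fragments are counted relative to transcript length and library size. All 10 were among the 10297 genes whose FPKM averaged 1 or more over the groups, called the tested genes.

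The study set wild-type mice (WT, C57BL/6J) against *Snord116del* mice (strain B6(Cg)-Snord116tm1.1Uta/J, heterozygous, with the deletion on the paternal chromosome, which is the active copy of this imprinted locus), also called the mutant here. The deletion removes the *Snord116* small nucleolar RNA repeats and, with them, the long noncoding RNA *116HG* that is spliced from the same transcript. All mice were adult. Cortex RNA was sequenced from males at 2 times of day, given as hours after lights on (zeitgeber time, Zt): 3 WT and 2 *Snord116del* mice at Zt +6, in the light, and 2 WT and 2 *Snord116del* mice at Zt +16, in the dark. Each mouse is a separate sample in the labels, but the table gives 1 FPKM value per group, so no spread between mice can be computed, no test was possible, and every difference below is a description of these groups. A gene is called higher or lower when FPKM + 1 differs at least 1.5-fold, a log2 fold change of 0.58, and the higher group has at least 1 FPKM. For DNA bound near *116HG*, chromatin isolated by RNA purification (ChIRP) was sequenced from brain hemispheres with oligos against *116HG* in 2 WT replicates and 1 *Snord116del* brain, and with non-specific control oligos (NSC) in 1 WT and 1 *Snord116del* brain. These 5 libraries each have a list of peaks.

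The deleted gene does not check the labels here, because all 3 table entries named for *Snord116* are listed at 0 in every group. The groups differed over the whole table as well as at these genes. At Zt +6 the tested genes had a median of 3.17 FPKM in WT against 5.63 in the mutant, and at Zt +16 of 2.90 against 4.00. The labels name an earlier version of the table for both *Snord116del* mice and 1 of the 3 WT mice at Zt +6, so the table version and this group cannot be told apart. Marker sums also moved with the groups. The 4 astrocyte markers summed to 30.0, 90.1, 13.5 and 17.3 FPKM in WT Zt +6, *Snord116del* Zt +6, WT Zt +16 and *Snord116del* Zt +16, the 4 endothelial markers to 4.56, 17.1, 2.00 and 2.75, and the 4 microglial markers to between 16.0, in WT at Zt +16, and 38.2, in *Snord116del* at Zt +6. The 4 oligodendrocyte markers summed to between 381 and 910, the 4 cortical projection neuron markers to between 17.7 and 47.7, and the 5 striatal markers to 19.4 and 20.9 in WT and 38.8 and 39.3 in the mutant. The 6 neuronal markers summed to between 550 and 946 FPKM, and none of the neuronal, cortical, astrocyte or oligodendrocyte markers was below 1 FPKM in every group. *Ttr*, which choroid plexus makes in bulk, was at 200 and 182 FPKM at Zt +6 and at 24.9 and 29.6 at Zt +16, while *Folr1* and *Kl*, other markers of that tissue, were below 1 FPKM in every group. *Kcnj13*, the remaining marker of that list, had 0.63 and 2.20 FPKM at Zt +6 and 0.58 and 0.81 at Zt +16. The part of these differences in the results was not tested, and in bulk tissue fewer cells of a type and less RNA per cell cannot be told apart.

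The acetyltransferases CBP and p300 are close relatives that act as coactivators for CREB and many other factors. *Crebbp* (ENSMUSG00000022521.7, chromosome 16, 4084048 to 4213404 in mm9, minus strand) had 5.31 FPKM at Zt +6 in the WT group against 17.5 in the mutant, then 2.19 against 2.60 at Zt +16. *Ep300* (ENSMUSG00000055024.5, chromosome 15, 81415781 to 81482507, plus strand) was at 3.52 and 14.5 FPKM at Zt +6 and at 1.39 and 2.01 at Zt +16. Both genes thus stood apart in the *Snord116del* group at Zt +6 and were lowest in WT at Zt +16. Each was the other's nearest member by pattern, at a distance of 0.20 over the 4 groups on the centred log2 scale, and the only nearer pair was *Kat2b* and *Hdac5*, at 0.19. *Crebbp* was above *Ep300* in each group, by 1.51 and 1.21 times at Zt +6 and 1.57 and 1.30 times at Zt +16. The highest group was 7.98 times the lowest for *Crebbp* and 10.4 times for *Ep300*, the widest span of the 10 genes.

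GCN5 and PCAF are the paired acetyltransferases of the SAGA and ATAC coactivator complexes. *Kat2a* (ENSMUSG00000020918.7, chromosome 11, 100566060 to 100573779, minus strand) had 3.13 FPKM at Zt +6 in the WT group against 5.32 in the mutant, then 2.91 against 3.41 at Zt +16. *Kat2b* (ENSMUSG00000000708.8, chromosome 17, 53706186 to 53812045, plus strand) was at 1.57 and 4.29 FPKM at Zt +6 and at 1.37 and 1.59 at Zt +16. Here the other 3 groups lay close together and *Snord116del* at Zt +6 was again highest. *Kat2a* was 1.99 to 2.14 times *Kat2b* in those 3 groups and 1.24 times in *Snord116del* at Zt +6.

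HDAC1 and HDAC2 are closely related enzymes shared by the Sin3, NuRD and CoREST complexes. *Hdac1* (ENSMUSG00000028800.9, chromosome 4, 129193348 to 129219957, minus strand) had 3.40 FPKM at Zt +6 in the WT group against 3.26 in the mutant, then 3.70 against 4.94 at Zt +16. *Hdac2* (ENSMUSG00000019777.9, chromosome 10, 36694350 to 36721695, plus strand) was at 10.2 and 11.7 FPKM at Zt +6 and at 14.8 and 17.4 at Zt +16. These were the only members that were highest in *Snord116del* at Zt +16. *Hdac2* was 3.00 to 3.99 times *Hdac1* in the 4 groups. Of the 32-base stretches inside the exons of the longest *Hdac1* transcript, 81.4% occurred more than once in the mm9 genome, so reads of *Hdac1* can match other places and its value is uncertain. The share was 32.6% for *Kat2b*, 6.56% for *Ncor1*, 2.57% for *Ep300* and under 1% for the other 6 genes.

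HDAC3 works inside the NCoR complex, whose scaffold *Ncor1* encodes. *Hdac3* (ENSMUSG00000024454.8, chromosome 18, 38095498 to 38114642, minus strand) had 2.90 FPKM at Zt +6 in the WT group against 6.14 in the mutant, then 1.54 against 2.15 at Zt +16. *Ncor1* (ENSMUSG00000018501.10, chromosome 11, 62129928 to 62272043, minus strand) was at 9.79 and 27.7 FPKM at Zt +6 and at 3.81 and 5.82 at Zt +16. *Ncor1* was therefore the highest of the 10 genes in *Snord116del* at Zt +6 and the third highest in the other 3 groups. It was 2.47 to 4.50 times the level of *Hdac3*.

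Class IIa deacetylases shuttle between cytoplasm and nucleus with calcium signals, bind MEF2 factors and have little deacetylase activity of their own. *Hdac4* (ENSMUSG00000026313.8, chromosome 1, 93829334 to 94044970, minus strand) had 2.67 FPKM at Zt +6 in the WT group against 8.98 in the mutant, then 1.09 against 1.37 at Zt +16. *Hdac5* (ENSMUSG00000008855.10, chromosome 11, 102055746 to 102091480, minus strand) was at 13.9 and 25.5 FPKM at Zt +6 and at 12.0 and 14.5 at Zt +16. *Hdac5* was the most abundant member in WT at Zt +6, and *Hdac4* the least abundant in both groups at Zt +16. *Hdac5* exceeded *Hdac4* 5.18-fold and 2.84-fold at Zt +6 and 11.0-fold and 10.6-fold at Zt +16, so the gap narrowed where *Hdac4* was high.

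**Figure D1:**
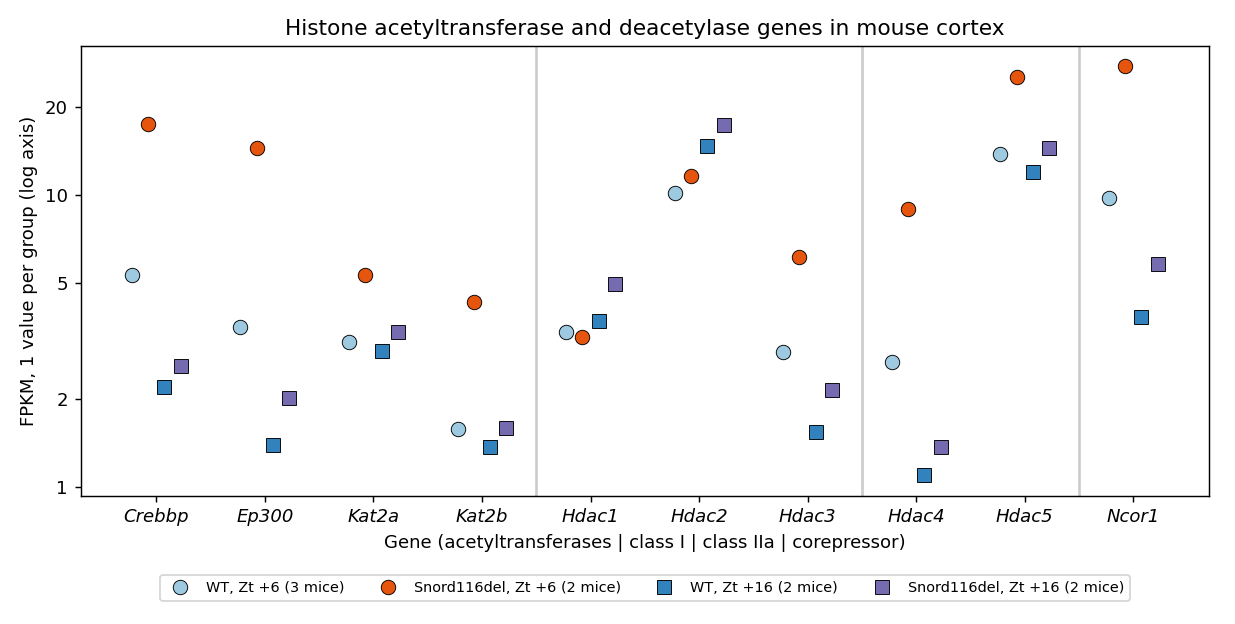
Level of each gene in the 4 groups, in FPKM on a log axis, with 1 point per group and no error because the table holds 1 value per group. *Snord116del* at Zt +6 is the highest point for 8 of the 10 genes, and *Hdac1* and *Hdac2* are highest in *Snord116del* at Zt +16.

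Summed by role, the 4 acetyltransferase genes reached 13.5 FPKM at Zt +6 in WT against 41.6 in the mutant, then 7.87 against 9.61 at Zt +16. The 5 deacetylase genes summed to 33.0 and 55.5 FPKM at Zt +6 and to 33.1 and 40.4 at Zt +16. The ratio of the acetyltransferase to the deacetylase sum was 0.41 and 0.75 at Zt +6 and 0.24 in both groups at Zt +16. Transcripts of these 5 deacetylases therefore outnumbered those of these 4 acetyltransferases per length in every group, by the least in *Snord116del* at Zt +6. Other acetyltransferases and deacetylases are not in these sums, so they do not give the balance of the whole system. They were also not corrected for the relation to transcript length given below. The order of the groups was shared by many other genes. *Crebbp*, *Ep300*, *Hdac3*, *Hdac4* and *Ncor1* had the order *Snord116del* Zt +6, WT Zt +6, *Snord116del* Zt +16, WT Zt +16 from high to low, as had 26.2% of the tested genes. *Kat2a*, *Kat2b* and *Hdac5* had *Snord116del* at Zt +6, then *Snord116del* at Zt +16, WT at Zt +6 and WT at Zt +16, as had 19.7%. The astrocyte and endothelial sums given above were likewise highest in *Snord116del* at Zt +6 and lowest in WT at Zt +16, and their part was not tested.

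The first comparison asked whether loss of *Snord116* goes with another level of these genes in the light. In *Snord116del* at Zt +6, 8 of the 10 genes were higher by the fold rule and none was lower, while 49.3% of the tested genes were higher and 7.62% lower. The log2 fold change was 1.78 for *Ep300*, 1.55 for *Crebbp*, 1.44 for *Hdac4*, 1.41 for *Ncor1*, 1.04 for *Kat2b*, 0.87 for *Hdac3*, 0.83 for *Hdac5* and 0.61 for *Kat2a*. The coactivators CBP and p300, the class IIa enzyme *Hdac4* and the scaffold *Ncor1* thus led the list. *Hdac2*, at 0.18, and *Hdac1*, at -0.05, did not pass the rule. The median of the 10 genes was 0.95 and that of the tested genes was 0.57. *Ep300* stood at the 98.3rd percentile of the tested genes, *Crebbp* at the 94.9th, *Hdac4* at the 92.2nd and *Ncor1* at the 91.3rd, whereas *Kat2a*, at the 52.2nd, was near the middle and *Hdac1*, at the 20.6th, was below it.

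The differences moved with scale and with transcript length. When each group was scaled to the same median, which moved the median of the tested genes from 0.57 to -0.06, *Ep300* (1.05), *Crebbp* (0.80), *Hdac4* (0.75) and *Ncor1* (0.62) were still higher, *Hdac1* was lower (-0.67), and *Hdac2* was at -0.58, beside 15% of the tested genes higher and 24.4% lower. Of the called genes over the whole table, 86.6% were higher as deposited, 38.1% after the median scaling, 49.7% after quantile normalization and 47.1% with the length trend removed. The change was larger for longer transcripts: 16.2% of the tested genes with a longest transcript under 2000 bases were higher, 45.5% from 2000 to 4000, 74.9% from 4000 to 6000 and 91.1% at 6000 or more. *Ncor1* (9037 bases), *Ep300* (8749) and *Crebbp* (7507) belong to the longest class, and no member to the shortest.

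**Figure D2:**
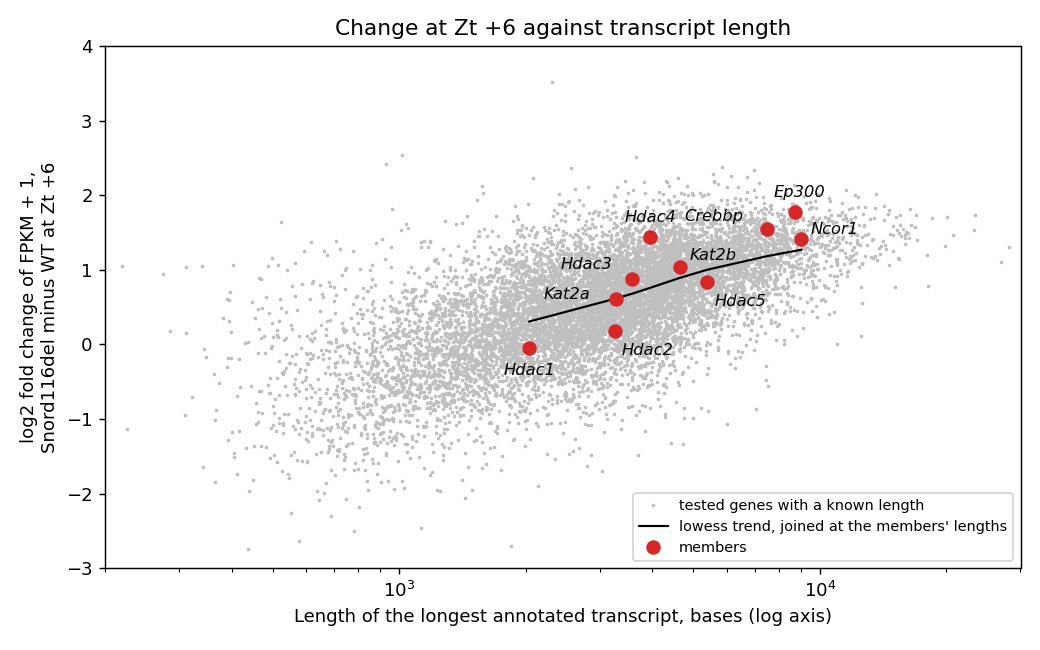
Log2 fold change at Zt +6 (*Snord116del* minus WT, FPKM + 1) against the length of the longest annotated transcript in bases, on a log axis, for 10165 tested genes with a known length, of which 33 lie outside the axes. *Hdac4* lies farthest above the trend among the members, at 1.44 where the trend is 0.76, and *Hdac1*, *Hdac2* and *Hdac5* lie below it.

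With a smooth trend on length taken away, *Hdac4* was the only member past the rule, at 0.69 (12.2% of the tested genes with a length were then higher and 13.7% lower). *Ep300* was at 0.52, *Crebbp* at 0.37, *Hdac3* at 0.19, *Kat2b* at 0.15 and *Ncor1* at 0.14. *Hdac5* was then at -0.17, *Hdac1* at -0.35 and *Hdac2* at -0.43. *Ncor1*, among the leaders as deposited, was thus near the middle of the tested genes once length was taken into account, at the 61.3rd percentile. *Hdac4*, with a transcript of 3937 bases, was at the 91.1st. That length is from the longest annotated gene of the name. Another record named *Hdac4* lies downstream of it, and its bases are not counted. The trend was 0.76 at 3937 bases and 1.27 at the 9037 bases of *Ncor1*, so a longer *Hdac4* transcript would lower its value. Whether the transcript is longer was not tested.

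At Zt +16, in the dark, none of the 10 genes passed the rule, while 19% of the tested genes were higher and 0.204% lower. The relation to length ran the other way here, with 39.1% of the tested genes under 2000 bases higher and 3.08% of those of 6000 bases or more. All 10 log2 fold changes were above 0, from 0.13 for *Kat2b* to 0.50 for *Ncor1*, with a median of 0.24 beside 0.35 for the tested genes, of which 96.8% were above 0. The sign followed the scale: 3 of the 10 genes were above 0 after median scaling, and 0 of 10 when the groups had the same total. Of the called genes over the table, 98.9% were higher as deposited, 70.4% after median scaling, 42.1% after quantile normalization and 23.9% with the same total. *Ncor1* went from 3.81 to 5.82 FPKM, 1.53 times, and passed only with a pseudocount of 0.1. The change at Zt +16 minus that at Zt +6 was below 0 for 8 of the 10 genes, at -1.45 for *Ep300*, -1.38 for *Crebbp* and -1.27 for *Hdac4* on the log2 scale, and above 0 for *Hdac1* (0.39) and *Hdac2* (0.05). The median of this difference over the tested genes was -0.22, and no test of it was possible.

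**Figure D3:**
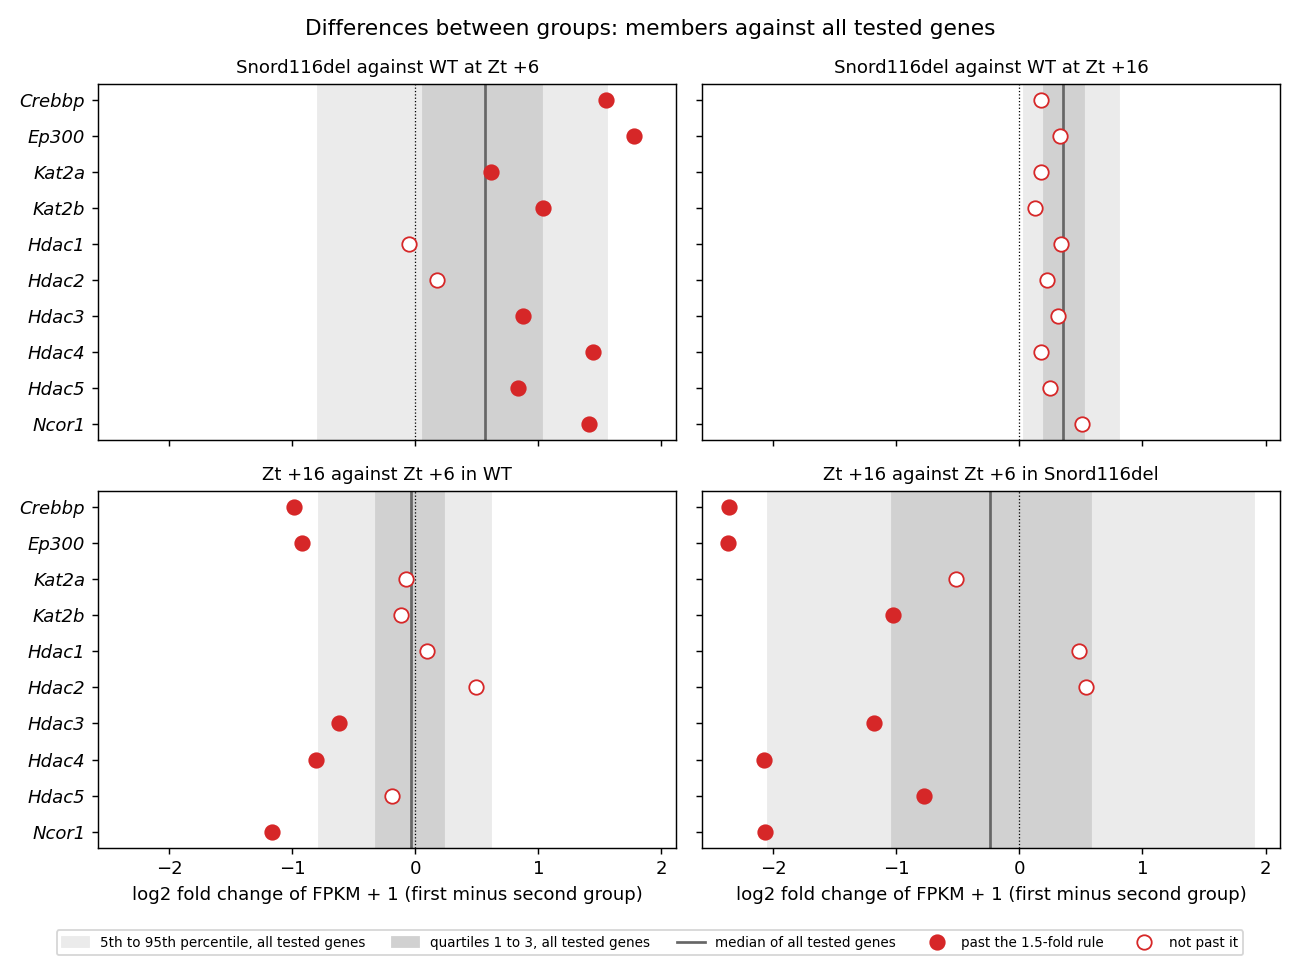
Log2 fold change of FPKM + 1 of each gene in the 4 comparisons, with filled points for those past the 1.5-fold rule, and bands between the quartiles and for the 5th to 95th percentile of all 10297 tested genes. *Ep300* lies above the 95th percentile at Zt +6, no gene passes at Zt +16, and *Crebbp*, *Ep300*, *Hdac4* and *Ncor1* lie below the 5th percentile between the times in both genotypes.

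The time comparisons asked which genes differ between light and dark. They share their groups with the genotype comparisons, so they give no separate support to them. In WT, 5 of the 10 genes were lower at Zt +16 and none was higher, beside 10.3% of the tested genes lower and 5.71% higher. They were *Ncor1* (-1.17), *Crebbp* (-0.98), *Ep300* (-0.92), *Hdac4* (-0.81) and *Hdac3* (-0.62). As deposited, the corepressor and the enzyme it activates were thus both lower in the dark, together with both coactivators. Of the tested genes of 6000 bases or more, the class of *Ncor1*, *Ep300* and *Crebbp*, 29.4% were lower. *Ncor1* stood at the 1.33rd percentile of the tested genes and *Crebbp* at the 2.46th. *Kat2a* (-0.08), *Kat2b* (-0.12), *Hdac5* (-0.19), *Hdac1* (0.10) and *Hdac2* (0.49) did not pass. With the length trend removed, *Hdac4* (-0.71), *Ncor1* (-0.71) and *Crebbp* (-0.61) were still lower, beside 6.77% of the tested genes. *Hdac3* (-0.55) and *Ep300* (-0.47) then missed the rule. Among all called genes 35.7% were higher as deposited, 53.1% after median scaling and 1.71% with the same total, and the 5 genes kept their sign under these scalings.

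In *Snord116del*, 7 of the 10 genes were lower at Zt +16, beside 39.1% of the tested genes lower and 25% higher. *Ep300* (-2.37), *Crebbp* (-2.36), *Hdac4* (-2.08) and *Ncor1* (-2.07) were each below the 5th percentile of the tested genes. *Hdac3* was at -1.18, *Kat2b* at -1.03 and *Hdac5* at -0.77. The rule was not passed by *Kat2a* (-0.52), *Hdac1* (0.48) and *Hdac2* (0.54). With the length trend removed 4 genes were lower, *Hdac4* (-1.55), *Crebbp* (-1.03), *Ep300* (-0.87) and *Hdac3* (-0.77), and *Hdac2* (0.83) was higher, beside 25% of the tested genes lower and 24.8% higher. *Ncor1* (-0.55) and *Kat2b* (-0.27) then missed the rule, *Hdac5* was at 0.19, and *Ncor1* moved from the 4.74th to the 26.5th percentile. Of the called genes over the table, 39.0% were higher as deposited, 56.9% after median scaling, 51.5% after quantile normalization and 11.1% with the same total. With the same total all 10 genes were below 0, *Hdac1* and *Hdac2* included, so the direction of these 2 between the times depends on the scale.

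The other genes of the acetylation system came from fixed lists, and 78 of their 87 genes were tested. At Zt +6, 46 of the 78 were higher in *Snord116del* and 2 lower, a median of 0.77, beside the 49.3% higher and median of 0.57 of the tested genes. Among genes that reach a mean of 1 FPKM without *Snord116del* at Zt +6, 39 of 71 were higher, beside 44.3% of all such genes, and the 10 members all belong to these. With the length trend removed the median of the 78 was -0.03. With the groups scaled to the same median 17 were higher and 15 lower, beside 15% of the tested genes higher and 24.4% lower. Subunits of the complexes that carry the deacetylases were higher in 8 of 11 cases for Sin3, 7 of 11 for NuRD and 4 of 5 for CoREST. Among genes that reach that mean without *Snord116del* at Zt +6, the counts were 7 of 10, 7 of 11 and 3 of 4, beside the same 44.3%. Of the partners of *Ncor1*, the WD-repeat subunits *Tbl1x* (2.36 FPKM in WT and 8.31 in *Snord116del*) and *Tbl1xr1* (1.42 and 4.72) were higher. The small subunit *Gps2* (7.14 and 8.55) did not pass.

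The further list counts at Zt +6 stand beside 49.3% of the tested genes higher and 7.62% lower. Of the other acetyltransferases, 2 of 7 were higher, *Kat6a* and *Kat6b*, which the table names *Myst3* (2.15 and 8.04 FPKM) and *Myst4* (1.68 and 5.45) and which encode MYST-family enzymes. Of the other zinc-dependent deacetylases, 3 of 6 were higher: *Hdac7* (1.24 and 2.47), *Hdac8* (1.23 and 2.41) and *Hdac9* (2.68 and 7.49). *Hdac8* was tested only through its high value in *Snord116del* at Zt +6. Among genes that reach a mean of 1 FPKM without that group, 2 of 5 were higher, beside 44.3% of all such genes. Of the 6 tested sirtuins, the NAD-dependent family, *Sirt4* (3.01 and 5.33) was higher and *Sirt5* (4.09 and 2.19) lower. SAGA and ATAC subunits were higher in 8 of 18 cases, and in 6 of 16 when the filter left out *Snord116del* at Zt +6. *Taf10*, which encodes a subunit that SAGA shares with TFIID, was lower, at 33.5 FPKM in WT and 16.5 in *Snord116del* (log2 fold change -0.98).

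The 7 tested CREB and MEF2 factors, of 10 in the list, were higher at Zt +6, beside 49.3% of the tested genes. *Creb1* (0.93 FPKM in WT and 2.32 in the mutant) and *Crtc3* (0.84 and 1.84) were tested only through the high value in *Snord116del* at Zt +6, so their count is no support. The 5 others reach a mean of 1 FPKM over the remaining groups. *Mef2c*, a partner of the class IIa enzymes, had 8.97 FPKM in WT against 37.5 in the mutant (log2 fold change 1.95), and *Mef2a* had 3.06 against 12.2 (1.70). Both were among the 3 largest increases of the lists. After median scaling 3 of the 7 were higher and none lower, beside 15% of the tested genes higher and 24.4% lower. With the length trend removed the median of the 7 was 0.15.

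At Zt +16, 13 of the 78 genes were higher and none lower, beside 19% of the tested genes higher, with a median of 0.26 beside 0.35 for the tested genes. The largest were *Hdac10*, which encodes a class IIb enzyme, at 1.31 FPKM in WT and 3.54 in *Snord116del* (0.97), *Ccdc101*, which encodes the SAGA subunit SGF29, at 6.76 and 12.6 (0.81), and *Brms1*, a Sin3 subunit, at 10.9 and 19.7 (0.79). None of the CREB and MEF2 genes passed. After median scaling 1 of the 78 was higher and 1 lower, and few of all tested genes passed as well. Between the times, 1 of the 78 genes was higher at Zt +16 in WT, *Sirt3* (7.86 and 13.0 FPKM), and 13 were lower, beside 5.71% and 10.3% of the tested genes. In *Snord116del* 16 were higher and 40 lower, beside 25% and 39.1%. With the same total the counts were 0 higher and 30 lower in WT and 2 and 58 in *Snord116del*, and after median scaling they were 4 and 11 in WT and 21 and 31 in *Snord116del*. The shares of the tested genes given here are for the values as deposited. The direction of the called genes over the whole table moved with these scalings too, as given above, so the scaled counts are no result about the lists.

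**Figure D4:**
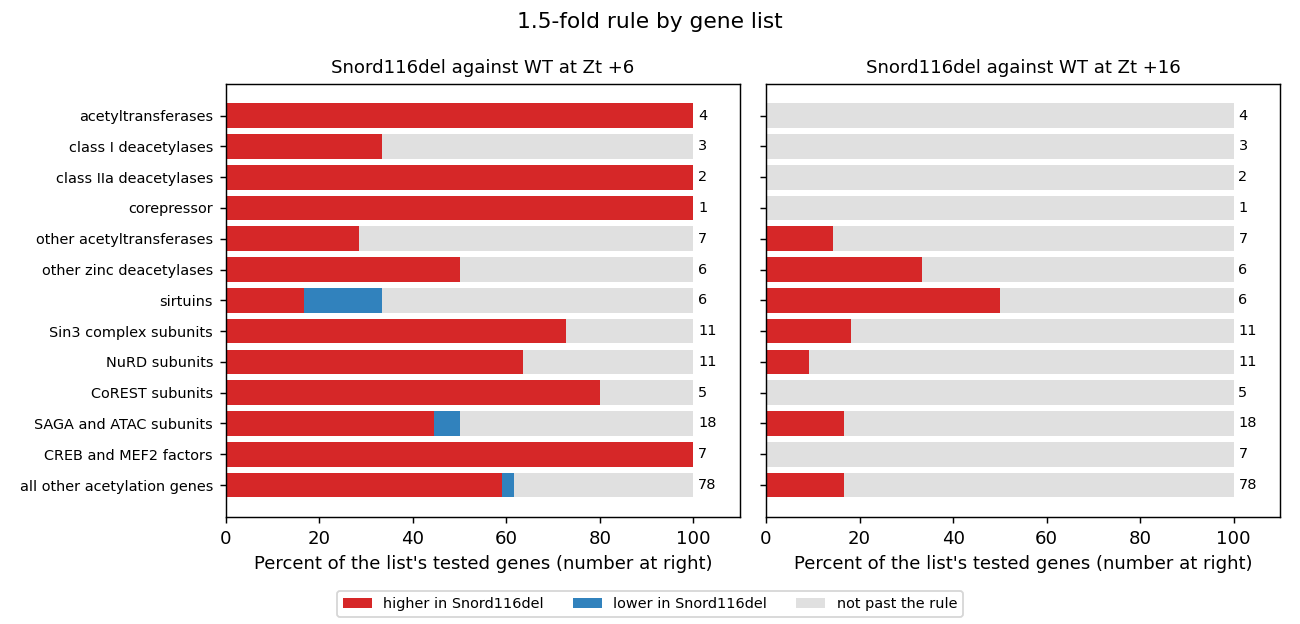
Percent of the tested genes of each list shown that were higher or lower in *Snord116del* by the 1.5-fold rule, at Zt +6 and Zt +16, with the number tested at the right of each bar. At Zt +6 the 7 tested of 10 CREB and MEF2 factors are higher, beside 49.3% of the tested genes. Of these, *Creb1* and *Crtc3* were tested only through their high value in *Snord116del* at Zt +6, so the count is no support. At Zt +16 no list of members has a gene past the rule.

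The ChIRP lists asked where *116HG* oligos retrieved DNA. A peak was counted at a gene when it lay inside it or within 2 kb. In WT *116HG* replicate 1, 177 of 78033 peaks were at these genes, 0.227% of the list (exact 95% interval 0.195 to 0.263), and all 10 genes had at least 2. This was common: 93.6% of the tested genes had such a peak, and their median was 4 peaks. *Ncor1* had 52 peaks, *Crebbp* 36, *Ep300* 28, *Hdac5* 22, *Hdac4* 17, *Hdac3* 6, *Kat2b* 5, *Hdac2* 5, *Kat2a* 4 and *Hdac1* 2. The scaffold *Ncor1* and both coactivators were thus among the genes with the most peaks, at the 99.7th, 99.0th and 97.9th percentile, while *Hdac1* was at the 16.0th. Per kb of exon the percentile was 95.6 for *Crebbp*, 93.5 for *Hdac4*, 93.1 for *Ncor1*, 79.2 for *Hdac5* and 78.9 for *Ep300*. The other lists held 2 peaks or fewer at these genes. Replicate 2 had 2 of its 11145 peaks there (0.0179%, 0.00217 to 0.0648), and 17.5% of the tested genes had a peak of that list. WT NSC had 0 of 3648, which allows a share of up to 0.0822% (2.53% of the tested genes had a peak), *Snord116del* *116HG* 0 of 1280, which allows 0.234% (2.86% of the tested genes), and *Snord116del* NSC 1 of 3418 (0.0293%, 0.000741 to 0.163). The intervals cover counting error only. The libraries hold different numbers of peaks, so the counts at these genes cannot be compared between them as such. For *Snord116del* *116HG* the limit of 0.234% lies above the 0.227% of replicate 1, so a lower share is not shown for that list.

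The replicate 1 peaks followed the exons. The middle of 147 of the 177 peaks lay in an annotated exon of the gene (83.1%), of which 127 were coding, 18 in untranslated regions and 2 in other exons. Of the others, 11 lay in introns and 19 in the 2 kb on either side. Over the whole list the share in exons of any gene was 71.6%. No such exon pattern was seen in replicate 2, where 2.27% of the list lay in exons, while the share was 2.82% in WT NSC, 12.3% in *Snord116del* *116HG* and 22.2% in *Snord116del* NSC. Exons make up 1.90% of the *Hdac4* gene, 5.80% of *Crebbp* and 9.02% of *Ncor1*, and at these genes 70.6%, 80.6% and 78.8% of the peaks were exonic. Of all bases under the 147 exonic peaks, 92.9% were exon bases. These peaks were chosen by a middle inside an exon, so a high share is partly set by that choice. Peaks covered 27 of the 31 exons of *Crebbp*, 22 of 31 in *Ep300*, 39 of 51 in *Ncor1*, 11 of 27 in *Hdac4* and 13 of 20 in *Hdac5*, but 1 of 12 in *Hdac1*, 1 of 20 in *Kat2b* and 2 of 15 in *Kat2a*. *Hdac1* (81.4%) and *Kat2b* (32.6%) also had the largest shares of exon stretches that occur more than once in the genome. The part of this in their peak counts was not tested. Over the 10 genes the number of peaks followed the exon bases (Spearman's rho 0.86) more than the WT FPKM at Zt +6 (0.41). These points share 1 library and are a description.

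**Figure D5:**
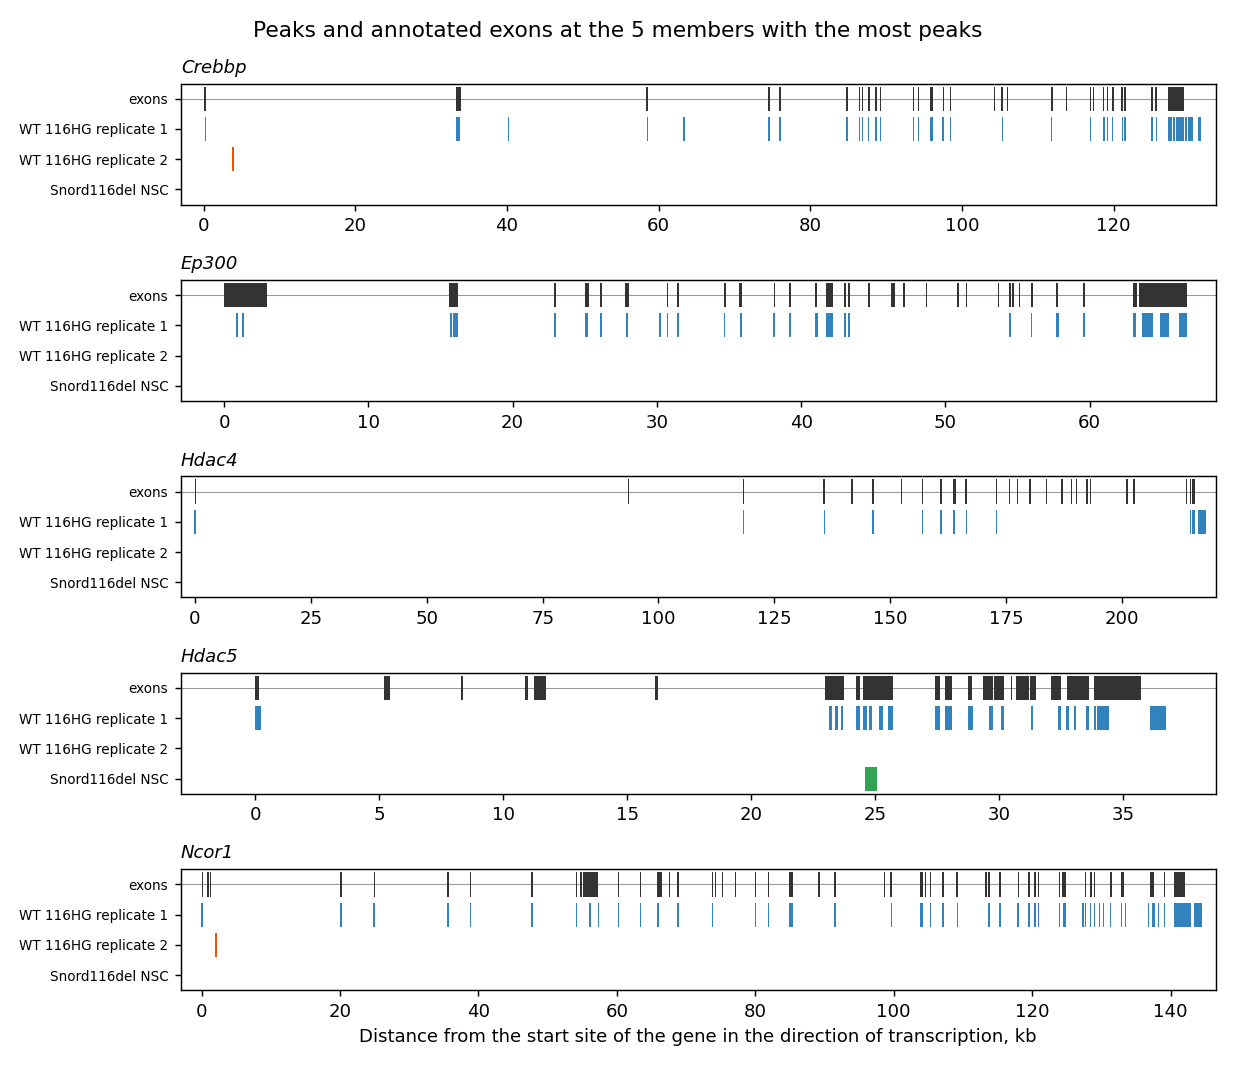
Annotated exons and ChIRP peaks at the 5 genes with the most replicate 1 peaks, against the distance from the start site in kb, with narrow features widened to be visible. The peaks of WT *116HG* replicate 1 line up with exons along each gene, replicate 2 has 1 intron peak each at *Crebbp* and *Ncor1*, and the *Snord116del* NSC peak at *Hdac5* lies over replicate 1 peaks.

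Sequences of single peaks show where their borders lay against exon borders. All were chosen among peaks centred in a coding exon, so they do not stand for the other peaks. For each gene listed here, the coding peak of at most 300 bases with the highest fold over input in replicate 1 is given. It is in mm9 on the strand of the gene, with coding bases in capitals and all other bases in lower case. The lower-case ag before the capitals and gt after them, where the peak reaches them, are the splice sites of the coding transcripts. The 18 lower-case bases of *Hdac5* and 12 of the 66 of *Ncor1* lie in an exon of another annotated transcript, and the rest are intron.
*Ncor1*, chr11:62144244-62144438, fold over input 174: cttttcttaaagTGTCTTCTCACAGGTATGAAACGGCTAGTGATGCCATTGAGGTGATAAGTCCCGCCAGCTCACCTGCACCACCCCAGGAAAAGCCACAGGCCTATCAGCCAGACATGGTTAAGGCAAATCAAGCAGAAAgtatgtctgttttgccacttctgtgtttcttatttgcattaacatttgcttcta
*Crebbp*, chr16:4091787-4091965, fold 129: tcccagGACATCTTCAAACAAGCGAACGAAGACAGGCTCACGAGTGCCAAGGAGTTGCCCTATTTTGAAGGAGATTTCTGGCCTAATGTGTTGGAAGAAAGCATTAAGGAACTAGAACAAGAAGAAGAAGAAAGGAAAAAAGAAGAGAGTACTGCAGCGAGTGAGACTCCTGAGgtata
*Hdac5*, chr11:102066584-102066714, fold 123: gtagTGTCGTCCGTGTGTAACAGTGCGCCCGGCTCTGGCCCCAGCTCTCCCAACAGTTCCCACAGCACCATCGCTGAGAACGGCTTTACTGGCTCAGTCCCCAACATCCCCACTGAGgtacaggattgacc
*Hdac4*, chr1:93872032-93872277, fold 113: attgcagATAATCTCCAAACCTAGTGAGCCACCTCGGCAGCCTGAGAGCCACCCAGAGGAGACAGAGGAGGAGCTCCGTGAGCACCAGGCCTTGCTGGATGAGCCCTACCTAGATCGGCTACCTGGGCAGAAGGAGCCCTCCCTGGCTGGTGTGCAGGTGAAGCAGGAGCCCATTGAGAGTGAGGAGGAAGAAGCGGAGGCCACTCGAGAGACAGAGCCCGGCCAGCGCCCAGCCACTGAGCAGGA
*Ep300*, chr15:81453838-81453969, fold 100: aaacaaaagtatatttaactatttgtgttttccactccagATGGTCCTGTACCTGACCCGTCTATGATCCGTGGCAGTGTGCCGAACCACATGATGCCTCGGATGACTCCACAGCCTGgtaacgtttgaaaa
*Hdac2*, chr10:36717767-36717905, fold 61.6: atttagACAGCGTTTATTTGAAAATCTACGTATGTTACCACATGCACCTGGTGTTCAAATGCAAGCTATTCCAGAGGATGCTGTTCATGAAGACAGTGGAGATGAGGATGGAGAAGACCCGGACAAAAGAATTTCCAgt
*Kat2a*, chr11:100569977-100570071, fold 51.3: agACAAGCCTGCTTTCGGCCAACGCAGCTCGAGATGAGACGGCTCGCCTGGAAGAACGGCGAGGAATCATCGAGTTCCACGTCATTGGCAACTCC
Of these bases, 168 of 179 were coding in *Crebbp*, 239 of 246 in *Hdac4*, 113 of 131 in *Hdac5* and 78 of 132 in *Ep300*. They were 129 of 195 in *Ncor1*, 131 of 139 in *Hdac2* and 93 of 95 in *Kat2a*. The peaks at *Ncor1* and *Ep300* thus held the most noncoding bases, and those at *Kat2a* and *Hdac4* ended inside the exon on their 3′ side. *Hdac1* and *Kat2b* had no peak centred in a coding exon. *Hdac3* had 1, and its letters are not shown. The 32 bases in the middle of the peak occurred once in the genome for 171 of the 177 peaks. The 6 others were 2 at *Kat2b*, 2 at *Ncor1* and 1 each at *Crebbp* and *Hdac1*.

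A peak of replicate 1 was called replicated when a replicate 2 peak lay within 10 kb of it. *Crebbp* and *Ncor1*, a coactivator and a corepressor, each had 1 replicated peak, so 2 of the 10 genes were counted, beside 18.1% of the tested genes and 31.7% of those of 100 kb or more. Both genes exceed 100 kb, as do *Hdac4* and *Kat2b*, which had none. At neither gene did the replicates overlap: the gap was 3539 bases at *Crebbp* and 1876 at *Ncor1*. In both, the replicate 1 peak sat at the start of the gene, centred 210 and 18 bases from the start site, with a fold over input of 31.1 and 36.2, near the low end for these genes, whose medians were 64.5 at *Crebbp* and 54.3 at *Ncor1*. The replicate 2 peak was shorter, at 64 and 79 bases, and lay in an intron downstream. A replicate 1 peak within 300 bases of the start site was found at 5 of the 10 genes (*Crebbp*, *Hdac3*, *Hdac4*, *Hdac5* and *Ncor1*), beside 45.8% of the tested genes.

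The replicated pairs differ in sequence as well as in position. The replicate 1 peak at *Crebbp* covered the first coding exon, shown from its start codon with coding bases in capitals and the untranslated bases left out, and both replicate 2 peaks were intronic.
*Crebbp*, replicate 1, chr16:4213138-4213223: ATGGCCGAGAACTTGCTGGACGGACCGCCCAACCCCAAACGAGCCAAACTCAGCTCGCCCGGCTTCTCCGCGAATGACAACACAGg
*Crebbp*, replicate 2, chr16:4209535-4209598: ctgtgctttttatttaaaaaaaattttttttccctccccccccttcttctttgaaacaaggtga
*Ncor1*, replicate 2, chr11:62270003-62270081: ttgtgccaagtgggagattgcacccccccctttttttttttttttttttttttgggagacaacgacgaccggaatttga
The *Ncor1* intron peak holds a run of 23 T on the strand of the gene. The *Crebbp* intron peak has runs of at most 8 equal bases, against 4 in the shown part of the *Crebbp* exon peak. That part is 86 of the 113 bases of the peak. The GC content was 61.6% in it and 34.4% and 41.8% in the whole intron peaks at *Crebbp* and *Ncor1*. The replicate 1 peak at *Ncor1*, chr11:62271958-62272093, covers an untranslated first exon and the bases before the start, and its letters are not shown.

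The control peak at *Hdac5*, from *Snord116del* NSC, which has neither the target RNA nor the matching oligos, lay at chr11:102066395-102066898 over a coding exon, with a fold over input of 21.0. It overlapped 2 replicate 1 peaks of the same region, with folds of 123 and 50.4, the first of which is the *Hdac5* sequence shown above. It was the only control peak at the 10 genes, and 10.6% of the tested genes had a peak of that list. Some peaks near a gene may belong to its neighbours in the annotation. At *Ncor1* 5 peaks past the end of the gene overlapped *Ttc19*, at *Hdac3* 2 upstream peaks overlapped *Rell2*, and at *Hdac5* 1 overlapped *G6pc3*. At *Hdac4* 3 of the 5 downstream peaks overlapped a second annotated record of the name *Hdac4*, and the 5 downstream peaks at *Crebbp* overlapped no annotated gene.

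Promoter windows in RefSeq (GRCm38.p6, 250 bases before to 50 after the start) were found for 8 of the 10 genes. The E-box CACGTG, the motif of clock factors such as CLOCK and BMAL1, matched in 1 window, at *Hdac5*, and in 7.15% of all windows. The full cAMP response element TGACGTCA matched at none of the 8 genes and in 1.79% of all windows. The element's first 5 letters, TGACG, which the full element also holds, matched on either strand at *Hdac4* (3 matches), *Hdac5* (2), *Kat2a* and *Kat2b* (1 each), and in 20.8% of all windows. These motifs hold a CpG, and the members' windows held 2 to 49 CpG, against a median of 7 over all windows, so the shares are not from windows of like composition. A match here describes letters and not binding.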

How the data were processed

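Cortex RNA of 9 mice and ChIRP DNA of 5 brain libraries with peak lists were used, and groups followed the labels. Per the labels and the study's methods, the authors aligned RNA reads with TopHat2 (2.0.5) and ran Cuffdiff (2.0.2) to make the deposited FPKM values, 1 per gene and group, on mm9. ChIRP reads were aligned with Bowtie2 (2.0.0) and the authors called peaks per library with MACS (1.4.2), whose deposited lists give a fold over input, a ratio. The list of WT *116HG* replicate 2 gives positions only. The depth behind an FPKM value is not in the table, so no interval was given for it. The authors' own fold changes and q values in the table were not used.

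The 10 genes and the lists were chosen with earlier results of these data known. Differences were taken as log2(FPKM + 1), and the length trend was a lowess curve (fraction 0.3, statsmodels 0.14.6) on the longest GENCODE transcript. Of the 23235 genes, 21853 matched a gene model. All members were named, and from the other lists the 3 with the largest change past the rule in each direction of each genotype comparison; further list genes, and the markers, were named after their values were seen. Some genes of these lists are not reported here. Peak positions were read as 0-based starts and are printed counted from 1. Intervals are exact (Clopper-Pearson, scipy 1.17.1), the limit at a count of 0 is 3 peaks, and both cover counting error only. Scripts in Python 3.11.15 with pandas 2.3.3 and numpy 2.4.6 were tested on simulated data. Alternatives were another pseudocount, filter, fold, scaling or normalization, the length trend, and other distances and thresholds for peaks.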

Additional observations from a re-analysis of the deposited data

How the results depend on the processing

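Of 310 alternative values of the members' changes, 49 had the opposite sign. Of these, 44 did not pass the rule either way, 32 of them at Zt +16, and 5 were called as deposited. The latter were *Kat2a* at Zt +6 (-0.052 with the same median, -0.074 with quantile normalization, -0.00011 without the length trend) and *Hdac5* without the length trend (-0.17 at Zt +6 and 0.19 between the times in *Snord116del*). In addition 27 called values no longer passed and 12 newly passed. At Zt +6, 8 members passed, against 4 with a mean of at least 5 FPKM, 5 each with the same median, quantile normalization and the 2-fold rule, and 1 without the length trend. Over all tested genes 5858 passed, against 4842 when the filter left out *Snord116del* at Zt +6 (chosen after seeing the data; 8 members passed), 2390 with a mean of at least 5 FPKM, 3059 at 2-fold and 2642 without the length trend. At Zt +16, 1 member passed instead of 0 with a pseudocount of 0.1. Over all genes 1980 passed, against 3141 with that pseudocount, 179 with the same median, 134 with the same total, 95 with quantile normalization, 143 at 2-fold and 176 without the length trend. Between the times in WT, 5 members passed, against 3 with a mean of at least 5 FPKM, 1 at 2-fold and 3 without the length trend. Over all genes 1645 passed, against 2694 with a pseudocount of 0.1, 1001 with a mean of at least 5 FPKM, 3036 with the same total, 287 at 2-fold and 1028 without the length trend. In *Snord116del*, 7 members passed, all lower, against 4 with a mean of at least 5 FPKM and 5 without the length trend (4 lower and 1 higher), and 6593 genes passed, against 3088 with that filter and 4368 at 2-fold. A filter of 5 FPKM tests fewer genes, and a larger fold passes fewer by construction. The cause of the other differences was not tested.

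The 2 genes with a replicated peak became 0 when overlap was required, 1 within 2 kb, 6 within 50 kb and 0 in the upper quartile of the fold over input. The share of all tested genes was not computed at these other settings, so the counts are no result about the members. Using a single replicate gave 2 to 10 genes, with 10 for replicate 1 alone. The 177 replicate 1 peaks became 38 in that quartile and 92 when peaks closer than 1 kb were merged, and the 1 *Snord116del* NSC peak became 0 in that quartile. No paired analysis was possible because the FPKM columns hold 1 value per group and carry no replicate numbers, and no result comes from a test. For the same reason single mice could not be left out.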
